A study of Homo sapiens with 5 samples.

Results

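DROSHA siRNA 1 and DROSHA siRNA 2, both directed against the DROSHA mRNA, were set against each other gene by gene, with 1 poly(A) RNA library for each. Genes were taken where either library had at least 5 CPM, the read count scaled to the size of the library, which 10697 of the 18257 genes in the table met. Of these members 10434 met it in both libraries, 160 in the siRNA 1 library alone and 103 in the siRNA 2 library alone, and together they held 99.6% of the reads. Just inside the limit were ATP6AP1L, C2orf15 and CCZ1B, each at 5.05 CPM with siRNA 1, and just outside were C2CD4C, CALHM2 and EFCAB6, each at 4.97 CPM with siRNA 2.

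The cells were HEK293, a human embryonic kidney line, in the T-REx Flp-In form that carries a FLAG-tagged copy of DICER1 in all 5 libraries of the series. A mock transfection, DICER1 siRNA 1, DICER1 siRNA 2, DROSHA siRNA 1 and DROSHA siRNA 2 gave 1 library each, all sampled at 18 h. The design text names the DROSHA knockdown and the mock as controls for DICER1 knockdown. With 1 library a side there is no replicate check, and the labels do not say that the libraries came from separate cultures, so a difference between 2 siRNAs cannot be told apart from a difference between 2 dishes. In bulk RNA, fewer cells that express a gene and less of its RNA per cell cannot be told apart either.

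DROSHA is the nuclear nuclease that, with its partner DGCR8, cuts microRNA hairpins out of primary transcripts, and DICER1 cuts the released precursors in the cytoplasm. An siRNA is a short RNA duplex, and the strand loaded into an Argonaute protein directs cutting of an mRNA that it pairs with along its whole length. The same strand can also lower other mRNAs that pair only with its seed, bases 2 to 8 from its 5′ end, mostly through sites in the 3′ untranslated region (UTR), as a microRNA does. Such lowering differs from one siRNA to another even when both reduce the intended target.

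The 7-base words below are shown first because they mark the mRNAs that were lower in each DROSHA library. Among 12069 words held by at least 300 members, ATAGAAT went with the lowest levels in the siRNA 1 library and GTGACTT with the lowest levels in the siRNA 2 library. Each word also occurs 1 time in the DROSHA mRNA, in its coding part, in a transcript of 5305 bases from GENCODE 29 (gene on chromosome 5, build GRCh38). Capitals mark the word, and bases are given 5′ to 3′ on the mRNA strand.
DROSHA with ATAGAAT, transcript bases 2007 to 2027: aggccaactgttATAGAATac
DROSHA with GTGACTT, transcript bases 1558 to 1578: cgagtaggcttcGTGACTTat
The siRNA sequences themselves were not used here, and these stretches are a match of letters and not the stated targets. ATAGAAT occurs in 16.1% and GTGACTT in 21.2% of all 18022 matched transcripts, so an occurrence in DROSHA is common by its letters alone.

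The holders of each word with the lowest values in that library are shown next, with the word in the 3′ UTR in capitals and up to 14 neighbouring bases. For siRNA 1 these were CNOT6 (chromosome 5), MTPN (chromosome 7), UBE2Z (chromosome 17), SETD7 (chromosome 4) and NIP7 (chromosome 16).
CNOT6, 3′ UTR base 271 of 4205: ttcttctacccaATAGAATat
MTPN, 3′ UTR base 818 of 3165: ggggatttaaaaATAGAATca
MTPN, 3′ UTR base 2228: taacatataaacATAGAATag
MTPN, 3′ UTR base 2233: tataaacatagaATAGAATag
UBE2Z, 3′ UTR base 844 of 1922: tagagccactacATAGAATag
SETD7, 3′ UTR base 499 of 5627: ctgtatcttgcaATAGAATgg
SETD7, 3′ UTR base 721: cagggtattattATAGAATat
SETD7, 3′ UTR base 4104: aatattttcatgATAGAATga
NIP7, 3′ UTR base 216 of 1459: ctttgtgacgaaATAGAATac
The word is followed by A in CNOT6, UBE2Z and NIP7, which hold 1 copy each, in 2 of the 3 copies in MTPN and in 1 of the 3 copies in SETD7. For siRNA 2 the lowest holders were PRDX3 (chromosome 10), SUMF1 (chromosome 3), SLMO2 (chromosome 20), ADAM10 (chromosome 15) and CORO1C (chromosome 12).
PRDX3, 3′ UTR base 530 of 777: aaaagtggcagaGTGACTTaa
SUMF1, 3′ UTR base 448 of 998: tcagattctattGTGACTTca
SLMO2, 3′ UTR base 138 of 1862: gtgtaaggctatGTGACTTga
ADAM10, 3′ UTR base 1571 of 8740: gtacagtatgtgGTGACTTtt
CORO1C, 3′ UTR base 252 of 2294: tttaagtgttatGTGACTTgt
Here the word is followed by A in PRDX3 alone, and ADAM10 holds 2 copies, of which the one nearer the start of the UTR is shown.

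Both siRNAs lowered the intended mRNA alike. Its level was 191 CPM in the mock and 194 and 193 CPM in the DICER1 libraries, against 41.2 CPM with DROSHA siRNA 1 and 41.9 CPM with DROSHA siRNA 2. This left 21.5% of the mock level with siRNA 1 (95% exact counting interval 19.1 to 24.1) and 21.9% with siRNA 2 (19.4 to 24.7). The intervals rest on 359 and 329 counts and, as all such intervals here, cover counting error only. The ratio of siRNA 2 to siRNA 1 was 1.02 (0.874 to 1.19), so counting error allows a difference of up to 1.19-fold in that direction. DROSHA was also the only member that lay at least 1.5-fold below all 3 other libraries in both DROSHA libraries (0.00935% of members), and no member lay above them in both (0%).

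DGCR8, whose mRNA carries hairpins that the DROSHA and DGCR8 complex cuts, was higher with both siRNAs. Its CPM was 122 in the mock, 129 and 132 with the DICER1 siRNAs, 188 with DROSHA siRNA 1 and 173 with DROSHA siRNA 2. Both DROSHA libraries lay above the other 3, and siRNA 1 exceeded siRNA 2 by 1.09-fold (1.01 to 1.17). DICER1 was at 243 CPM in the mock, 282 CPM with DROSHA siRNA 1 and 332 CPM with DROSHA siRNA 2, a ratio of 1.18 for siRNA 2 over siRNA 1 (1.12 to 1.25). By edgeR's quasi-likelihood test neither DGCR8 (adjusted p = 0.629) nor DICER1 (adjusted p = 0.288) differed between the 2 siRNAs.

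A member was called different where the 2 libraries were at least 1.5-fold apart and the 95% counting interval of their ratio left out equal levels. By this rule 296 members (2.77%) were higher with siRNA 1 than with siRNA 2, and 139 (1.30%) were lower. The DICER1 siRNA pair, with the same members and the same rule, gave 67 (0.626%) and 44 (0.411%). The median log2 ratio of siRNA 1 to siRNA 2 over all members was -0.0046, with an SD of 0.265 against 0.181 in the DICER1 pair. In the DROSHA pair 85 members were more than 2-fold apart, and in the DICER1 pair 6 were. Whether the DROSHA pair differs from the DICER1 pair was not tested, since each is 1 pair.

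edgeR's quasi-likelihood test was run with the spread taken from the DICER1 siRNA pair, which leaves 1 residual degree of freedom and assumes that the DROSHA libraries vary like that pair. It uses the same counts as the fold and interval calls. For genes picked by those counts, here and below, a pass is thus not separate support. Of 12234 genes tested, 176 (1.44%) were higher and 75 (0.613%) lower with siRNA 1 at an adjusted p under 0.05. Of the 435 members called by fold and interval, 205 also passed this test.

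The 2 libraries were then each set against the other 4, so that no result rests on the single mock. A library stood apart where it lay at least 1.5-fold beyond the nearest of the other 4, with the counting interval against each of them leaving out equal levels. The DROSHA siRNA 2 library stood below the other 4 in 161 members (1.51%) and above them in 6 (0.0561%). The DROSHA siRNA 1 library stood below in 26 (0.243%) and above in 2 (0.0187%). In both DROSHA libraries, then, most members that set the library apart were low in it.

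For comparison, the mock stood below in 2 members (0.0187%) and above in 3 (0.0280%). DICER1 siRNA 1 stood below in 5 (0.0467%) and above in 0 (0%), and DICER1 siRNA 2 stood below in 26 (0.243%) and above in 9 (0.0841%). DROSHA siRNA 1 and DICER1 siRNA 2 thus had the same count of low members, and DROSHA siRNA 2 had the most of the 5 libraries.

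**Figure D1:**
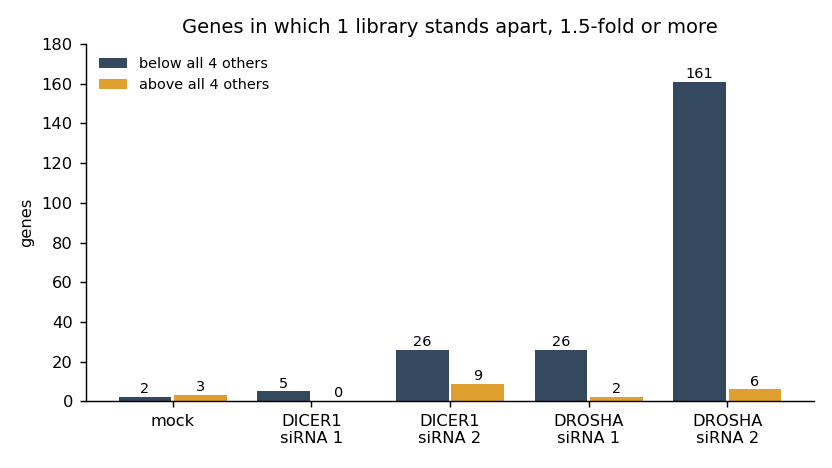
Number of member genes in which 1 library lies at least 1.5-fold below (dark bars) or above (yellow bars) each of the other 4 libraries, for each of the 5 libraries. DROSHA siRNA 2 has 161 low genes, against 26 for DROSHA siRNA 1 and 2 for the mock.

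The members that were higher with siRNA 1 were thus in large part members low with siRNA 2 alone. Of the 296, 161 (54.4%) were those in which siRNA 2 stood below all other libraries, and 2 were those in which siRNA 1 stood above. Of the 139 that were lower with siRNA 1, 26 (18.7%) were those in which siRNA 1 stood below all others and 6 those in which siRNA 2 stood above. In the remaining members called between the 2 siRNAs, at least 1 of the mock and DICER1 libraries was not separated from the DROSHA library in question by 1.5-fold with an interval that left out equal levels. In the 161, the siRNA 2 library had a median log2 ratio to the mean of the mock and DICER1 libraries of -0.94, and the siRNA 1 library one of -0.02. In the 26, the siRNA 1 library had a median of -0.87 against that mean, and the siRNA 2 library one of 0.12. These medians describe sets that were picked by the same values.

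**Figure D2:**
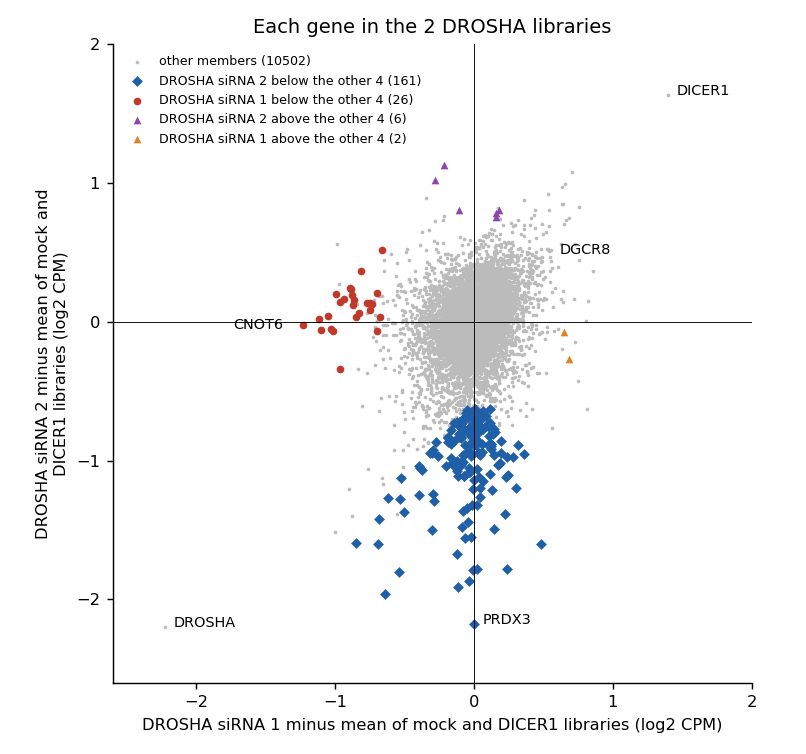
Each point is 1 of the 10697 members, with its log2 CPM in the DROSHA siRNA 1 library (x axis) and in the DROSHA siRNA 2 library (y axis), both minus the mean log2 CPM of the mock and the 2 DICER1 libraries. DROSHA lies low on both axes, the 161 genes low with siRNA 2 alone (blue diamonds) run down the y axis to PRDX3, and the 26 genes low with siRNA 1 alone (red circles) run left along the x axis to CNOT6.

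The widest difference of all members was in PRDX3, a mitochondrial peroxiredoxin that removes hydrogen peroxide. Its level was 620 CPM in the mock, 590 and 622 CPM with the DICER1 siRNAs, 611 CPM with DROSHA siRNA 1 and 135 CPM with DROSHA siRNA 2. The first 4 libraries lay together and the siRNA 2 library lay far below them. The ratio of siRNA 1 to siRNA 2 was 4.54 (4.25 to 4.85), and edgeR's quasi-likelihood test gave an adjusted p of 1.5e-05.

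CORO1C and ADAM10 were low with siRNA 2 alone as well. CORO1C, an actin-binding coronin, was at 333 CPM in the mock, 260 and 253 CPM with the DICER1 siRNAs, 330 CPM with DROSHA siRNA 1 and 81.3 CPM with DROSHA siRNA 2, a ratio of 4.06 (3.73 to 4.43). ADAM10, a membrane protease that sheds the outer part of Notch and other surface proteins, was at 80.0 CPM in the mock, 64.6 and 65.6 with the DICER1 siRNAs, 71.0 with siRNA 1 and 20.1 with siRNA 2, a ratio of 3.53 (2.96 to 4.23). In both genes the other 4 libraries spread more than for PRDX3, yet none came near the siRNA 2 library. ADAM10 also holds 3 copies of ATAGAAT in its 3′ UTR, and its level with siRNA 1 lay within the range of the mock and DICER1 libraries.

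ZDHHC20, an enzyme that attaches palmitate to proteins, was at 31.4 CPM in the mock, 24.9 and 20.4 with the DICER1 siRNAs, 35.2 with siRNA 1 and 8.15 with siRNA 2, a ratio of 4.32 (3.29 to 5.75). SUMF1, which activates the sulfatases, was at 21.7, 20.4 and 23.3 CPM in the mock and DICER1 libraries, 20.1 with siRNA 1 and 5.61 with siRNA 2, a ratio of 3.58 (2.56 to 5.11). MREG, or melanoregulin, was at 13.4, 15.6 and 15.1 CPM in those libraries, 17.2 with siRNA 1 and 5.48 with siRNA 2, a ratio of 3.14 (2.22 to 4.52). These 3 genes rest on between 43 and 64 counts in the siRNA 2 library, so their intervals are wide.

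SLMO2, a protein of mitochondrial lipid transfer, was at 234, 222 and 223 CPM in the mock and DICER1 libraries, 225 with siRNA 1 and 65.5 with siRNA 2, a ratio of 3.43 (3.11 to 3.79). API5, an inhibitor of apoptosis, was at 178, 184, 188, 169 and 57.3 CPM in the same order of libraries, a ratio of 2.94 (2.64 to 3.27). PJA2, a RING-type ubiquitin ligase, was at 136, 136, 147, 133 and 47.3 CPM, a ratio of 2.82 (2.51 to 3.18). In each of these genes the mock, both DICER1 libraries and DROSHA siRNA 1 lay close together and siRNA 2 alone was low.

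C12orf57 was at 70.6, 74.7, 76.6, 81.8 and 26.1 CPM, a ratio of 3.13 (2.68 to 3.68). OIP5, a protein needed to load the centromeric histone, was at 39.3, 40.9, 32.3, 36.5 and 10.1 CPM, a ratio of 3.62 (2.83 to 4.70). OIP5 is the only one of these 11 genes with no GTGACTT in its 3′ UTR or coding sequence, so holding the word is not shared by every gene at the low end. The 11 and the 161 were picked on the counts that edgeR's test uses, so passing it was partly built in. All 11 passed edgeR's quasi-likelihood test, with adjusted p-values up to 0.0102 for MREG, as did 116 of the 161.

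**Figure D3:**
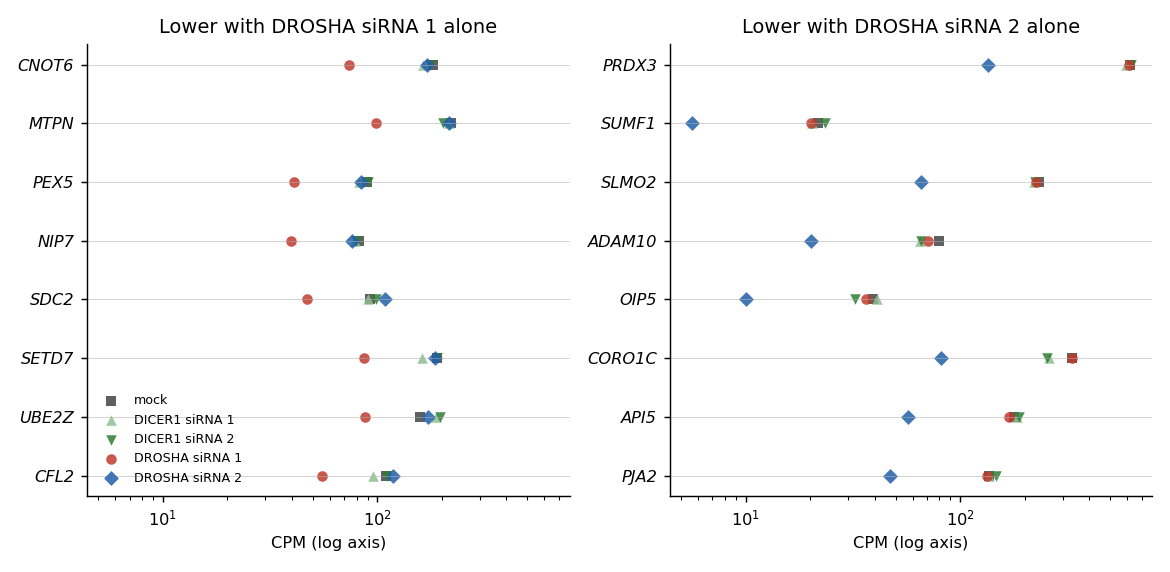
CPM on a log axis for the 8 genes with the widest gap below all other libraries with DROSHA siRNA 1 (left) and with DROSHA siRNA 2 (right), 1 marker for each of the 5 libraries. In each row 1 marker, the red circle on the left and the blue diamond on the right, lies apart from a group of 4.

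The genes low with siRNA 1 alone were fewer, and their median log2 gap to the nearest library was -0.72, close to the -0.74 for siRNA 2. The gap was more than 2-fold in 3 of 26 genes, against 34 of 161 for siRNA 2. CNOT6, a deadenylase of the CCR4-NOT complex that removes poly(A) tails, was at 181 CPM in the mock, 164 and 175 with the DICER1 siRNAs, 170 with DROSHA siRNA 2 and 73.7 with DROSHA siRNA 1. Its ratio of siRNA 2 to siRNA 1 was 2.31 (2.10 to 2.55). MTPN, or myotrophin, which binds the actin capping protein, was at 221, 215 and 202 CPM in the mock and DICER1 libraries, 216 with siRNA 2 and 98.1 with siRNA 1, a ratio of 2.20 (2.03 to 2.39). In both genes the 4 libraries other than siRNA 1 overlapped in a narrow band.

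PEX5, the receptor that carries proteins into peroxisomes, was at 89.4, 82.3 and 90.9 CPM in the mock and DICER1 libraries, 84.1 with siRNA 2 and 40.7 with siRNA 1, a ratio of 2.06 (1.81 to 2.36). It has no ATAGAAT in the transcript used. SETD7, a lysine methyltransferase, was at 190, 162 and 190 CPM in the mock and DICER1 libraries, 185 with siRNA 2 and 86.8 with siRNA 1, a ratio of 2.13 (1.95 to 2.33). NIP7, a ribosome assembly factor, was at 81.9, 79.0, 79.5, 76.6 and 39.5 CPM in the same order, a ratio of 1.94 (1.70 to 2.22). SETD7 holds 3 copies of the word and NIP7 holds 1. SETD7 also holds 2 copies of GTGACTT and MTPN holds 1, and neither gene was low with siRNA 2.

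SDC2, a cell surface heparan sulfate proteoglycan, was at 92.8, 90.6 and 98.1 CPM in the mock and DICER1 libraries, 108 with siRNA 2 and 47.2 with siRNA 1, a ratio of 2.29 (2.03 to 2.58). UBE2Z, a ubiquitin-conjugating enzyme, was at 157, 187, 195, 173 and 87.9 CPM in the same order, a ratio of 1.97 (1.799 to 2.15). CFL2, an actin-severing cofilin, was at 110, 95.5, 111, 118 and 54.95 CPM, a ratio of 2.15 (1.92 to 2.41). CFL2 has no ATAGAAT, while SDC2 holds 2 copies and UBE2Z 1. Passing edgeR's test was partly built in here too, since the genes were picked on the same counts. These 8 genes all passed edgeR's quasi-likelihood test, with adjusted p-values from 0.00154 to 0.00529, as did 21 of the 26.

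Some of the widest differences came from more than 1 library. SUSD5 was at 28.0 CPM in the mock, 18.3 and 10.8 with the DICER1 siRNAs, 8.83 with DROSHA siRNA 1 and 26.2 with DROSHA siRNA 2. The DICER1 siRNA 2 and DROSHA siRNA 1 libraries were both low, and the ratio of DROSHA siRNA 2 to siRNA 1 of 2.97 (2.28 to 3.91) did not pass edgeR's quasi-likelihood test (adjusted p = 0.0523). KLHL15, an adaptor of a cullin ubiquitin ligase, was at 547 CPM in the mock, 470 and 313 with the DICER1 siRNAs, 341 with DROSHA siRNA 1 and 802 with siRNA 2, a ratio of 2.35 (2.25 to 2.46). Its level thus lay both below the mock with siRNA 1 and above it with siRNA 2. C8orf34 was at 5.82, 4.32, 3.61, 2.18 and 5.48 CPM, the last 2 being the DROSHA libraries, rests on 19 and 43 counts there and did not pass (adjusted p = 0.150).

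PDLIM5, a scaffold of the actin cytoskeleton, was at 121, 115 and 107 CPM in the mock and DICER1 libraries, 65.0 with siRNA 1 and 147 with siRNA 2, a ratio of 2.27 (2.05 to 2.51). FNDC3A was at 129, 139, 131, 84.0 and 190 CPM in the same order, a ratio of 2.26 (2.07 to 2.47). Both genes lay below the 3 other libraries with siRNA 1 and above them with siRNA 2, and both hold ATAGAAT, with 1 copy in PDLIM5 and 2 in FNDC3A.

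Few genes were high in 1 DROSHA library alone. FGF2, a fibroblast growth factor, was at 26.6 CPM in the mock, 18.6 and 15.5 with the DICER1 siRNAs, 16.2 with DROSHA siRNA 1 and 40.3 with siRNA 2. CHIC1 was at 18.8, 15.0, 18.2, 14.8 and 37.96 CPM in the same order. The ratio of siRNA 2 to siRNA 1 was 2.49 (2.03 to 3.06) for FGF2 and 2.57 (2.08 to 3.18) for CHIC1, and these 2 of the 6 genes high with siRNA 2 passed edgeR's quasi-likelihood test (adjusted p = 0.00786 and 0.00818). FAM73A, TMCC1, ZNF680 and HOXC8 had ratios of 1.88, 1.54, 1.52 and 1.54, and did not pass.

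With siRNA 1 the 2 high genes were SNPH, or syntaphilin, which anchors mitochondria in axons, and TMEM144. SNPH was at 4.87, 4.97 and 5.05 CPM in the mock and DICER1 libraries, 8.15 with siRNA 1 and 4.08 with siRNA 2. TMEM144 was at 7.01, 6.80, 6.37, 10.7 and 6.37 CPM in the same order. Neither passed edgeR's quasi-likelihood test (adjusted p = 0.170 and 0.244), and they rest on 71 and 93 counts with siRNA 1.

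The words in 3′ UTRs were scored over 10460 members with at least 50 bases of 3′ UTR. For each member the log2 ratio of a library to the mean of the mock and DICER1 libraries was taken, and a linear trend on UTR length, UTR GC content and expression was removed. The shift of a word is the median of its holders minus that of the other genes. Because the words were picked from these libraries, the shifts are a description and carry no test.

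ATAGAAT had a shift of -0.06 in the DROSHA siRNA 1 library, the lowest of 12069 words, and next came TAGAATA at -0.04, which shares 6 bases with it. Every library has a lowest word. The lowest shifts elsewhere were -0.04 in the mock (325 holders), -0.05 in DICER1 siRNA 1 (1059 holders) and -0.11 in DICER1 siRNA 2 (580 holders), each with another word. The SD of all shifts was 0.0078, 0.0048 and 0.0057 in these libraries and 0.0054 in DROSHA siRNA 1. A larger shift than that of ATAGAAT was thus found in the DICER1 siRNA 2 library, while the mock and DICER1 siRNA 1 had smaller ones. The 1542 holders of ATAGAAT are 14.7% of the scanned members. In the mock, DICER1 siRNA 1, DICER1 siRNA 2 and DROSHA siRNA 2 libraries the shift of ATAGAAT lay between -0.0038 and 0.0046. The word thus went with lower levels in the siRNA 1 library and near 0 in the other 4.

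GTGACTT had a shift of -0.11 in the DROSHA siRNA 2 library, also the lowest of all words. Next were TGTGACT and TGACTTA, at -0.06 each, and AGTGACT at -0.05, each of which shares 6 bases with it. Its 1528 holders are 14.6% of the scanned members, and its shift in the other 4 libraries lay between -0.0069 and 0.0017. Between the 2 DROSHA libraries directly, GTGACTT had the highest shift of siRNA 1 minus siRNA 2, at 0.11, and ATAGAAT the lowest, at -0.06.

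The genes low in 1 library alone held its word often. GTGACTT was in the 3′ UTR of 106 of the 158 genes low with siRNA 2 alone that could be scanned (67.1%), against 14.6% of all scanned members, and 33 (20.9%) held it at least 2 times, against 2.48%. ATAGAAT was in 20 of the 26 genes low with siRNA 1 alone (76.9%), against 14.7%, and 10 (38.5%) held it at least 2 times, against 3.12%. The UTRs of these genes were longer than usual, with a median of 1602.5 bases for the siRNA 2 genes and 2239 for the siRNA 1 genes against 1265 for all scanned members. The part of UTR length in these shares was not tested. Each word was also picked from the same library values that define these genes. An excess of it among them is thus in part built in, and the shares here and by number of copies below are a description.

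Most holders were not called low in the library of their word. Of the 1269 genes with 1 GTGACTT site 5.75% stood below all other libraries with siRNA 2, of the 221 with 2 sites 10.9%, and of the 38 with 3 or more 23.7%, against 0.582% of the 8932 genes with none. Their median log2 ratios with siRNA 2 were 0.04 with no site, -0.06 with 1, -0.17 with 2 and -0.29 with 3 or more. In the siRNA 1 library the same 4 classes had medians between 0.0025 and 0.01. More copies of GTGACTT thus went with lower levels with siRNA 2, by the medians of classes that differ in UTR length as well.

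With siRNA 1 the order by number of ATAGAAT copies was less regular. The medians were 0.01 with no site (8918 genes), -0.04 with 1 (1216), -0.08 with 2 (236) and -0.05 with 3 or more (90), and in the siRNA 2 library the same classes lay between 0.02 and 0.04. The share standing below all others went from 0.0673% with none to 0.822%, 2.12% and 5.56%.

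**Figure D4:**
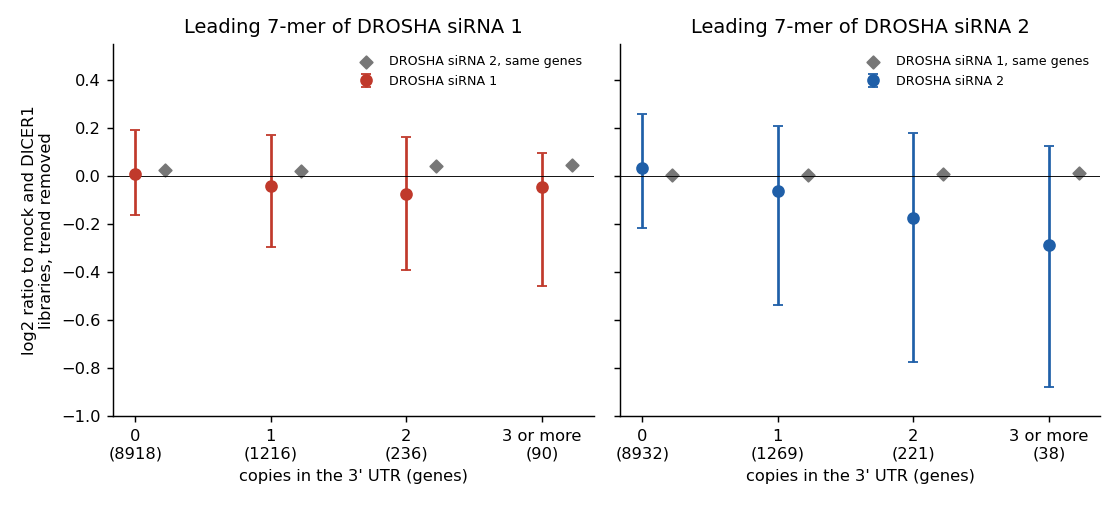
Median log2 ratio to the mock and DICER1 libraries after trend removal (y axis) for genes with 0, 1, 2 and 3 or more copies of the leading word in the 3′ UTR (x axis, number of genes in brackets), for siRNA 1 (left) and siRNA 2 (right). Bars run from the 10th to the 90th percentile of genes, and grey diamonds are medians of the same genes in the other DROSHA library, which stay between 0.0025 and 0.04 while the coloured medians fall to -0.08 on the left and -0.29 on the right.

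The base after the word also went with the level. Genes with 1 ATAGAAT followed by A had a median of -0.10 with siRNA 1 (324 genes), and those with 1 copy followed by another base -0.02 (892 genes). Genes with 1 GTGACTT followed by A had a median of -0.13 with siRNA 2 (218 genes), against -0.05 (1051 genes). An A opposite the first base of a guide strand is known to favour binding by Argonaute. Whether that bears on these levels was not tested.

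Levels by position and strand of the word were set beside genes with no copy in any region. Those had medians of 0.01 with siRNA 1 for ATAGAAT (8450 genes) and 0.04 with siRNA 2 for GTGACTT (7923 genes). Genes with the word in the coding sequence and none in the 3′ UTR lay below those medians. Theirs were -0.02 for ATAGAAT with siRNA 1 (437 genes) and -0.01 for GTGACTT with siRNA 2 (927 genes). Genes with the reverse complement of the word in the 3′ UTR and not the word itself had medians of 0.02 (911 genes) and 0.04 (857 genes). These were not lower than the medians of genes with no copy. Genes with the last 6 bases of the word followed by A, and not the whole word, had medians of 0.0022 (767 genes) and 0.02 (727 genes). These lay below the medians of genes with no copy. All scanned genes, which include the holders, had medians of 0.0043 and 0.02.

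TNRC6A was low with siRNA 2 alone and CNOT6, above, with siRNA 1 alone, both from lists of RNA silencing and decay genes. Of 16 microRNA biogenesis and silencing members 1 was higher and 1 lower with siRNA 1, each 6.25% of the list, against 2.77% and 1.30% of all members. TNRC6A, a GW182 protein that joins Argonaute to the deadenylases, was at 159, 181 and 171 CPM in the mock and DICER1 libraries, 167 with DROSHA siRNA 1 and 99.1 with siRNA 2. TNRC6C, its paralog, was at 43.5, 58.3, 55.9, 31.4 and 48.4 CPM in the same order. The ratio of siRNA 1 to siRNA 2 was 1.68 (1.54 to 1.84) for TNRC6A, and TNRC6C was lowest with siRNA 1, where the mock was nearest. By edgeR's quasi-likelihood test TNRC6A passed (adjusted p = 0.00732) and TNRC6C did not (adjusted p = 0.0551). TNRC6A holds 2 GTGACTT and 1 ATAGAAT in its 3′ UTR, and TNRC6C holds 1 ATAGAAT.

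Of 24 deadenylation and decapping members, DCP2 was called higher and CNOT6 lower with siRNA 1. Each is 4.17% of the list, against 2.77% and 1.30% of all members. DCP2, the enzyme that removes the mRNA cap, was at 217, 175, 215 and 201 CPM in the mock, DICER1 siRNA 1, DICER1 siRNA 2 and DROSHA siRNA 1 libraries, and at 110 CPM with DROSHA siRNA 2. Its ratio of siRNA 1 to siRNA 2 was 1.82 (1.68 to 1.98), and it holds 2 copies of each word. The list's median log2 ratio was -0.0031, against -0.0046 for all members, so these were single genes and not the list. Among 17 double-stranded RNA sensors and interferon-stimulated genes, 1 (5.88%) was called higher with siRNA 1, against 2.77% of all members. It was ADAR, which edits adenosines in double-stranded RNA. It stood at 466, 483, 483 and 473 CPM in the first 4 libraries and at 281 CPM with siRNA 2 (ratio 1.68, 1.60 to 1.77, adjusted p = 0.00169 by edgeR's quasi-likelihood test), and holds 1 GTGACTT.

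Single growth and cell cycle genes also differed. RRM2, a subunit of the ribonucleotide reductase that makes DNA precursors, was at 381, 356, 414 and 395 CPM in the mock, DICER1 and DROSHA siRNA 1 libraries and at 167 CPM with siRNA 2, a ratio of 2.36 (2.22 to 2.52). CDKN1A, the p21 inhibitor of cyclin-dependent kinases, was at 111, 146, 141, 128 and 68.4 CPM, a ratio of 1.86 (1.68 to 2.07). Both were low with siRNA 2 alone and hold GTGACTT in the 3′ UTR. CCNE1, or cyclin E1, was at 92.5, 109, 110, 134 and 83.1 CPM, a ratio of 1.61 (1.47 to 1.78). It was highest with siRNA 1 and lowest with siRNA 2, with log2 ratios to the mock of 0.54 and -0.15. CCNE1 has neither word.

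In those lists the rest of the members differed little. The median log2 ratio of siRNA 1 to siRNA 2 was 0.02 for 38 G1/S and DNA replication genes. It was also 0.02 for 22 p53 targets and for 43 mitotic genes. In that order 2 (5.26%), 1 (4.55%) and 0 (0%) were called higher, against 2.77% of all members, and 0 (0%) lower, against 1.30%. KIF23, a mitotic kinesin, had the widest ratio of the mitotic genes, 1.43 (1.33 to 1.53), and was under the 1.5-fold limit.

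Of 31 members of the TGF-beta pathway and extracellular matrix 3 were higher with siRNA 1 (9.68%, against 2.77% of all members). The list as a whole did not lean, with a median log2 ratio of 0.01, 16 members above 0 and 15 below. SMAD4, the shared mediator of TGF-beta and BMP signals, was at 97.1, 84.6, 84.9, 88.0 and 52.9 CPM, with siRNA 2 last. ID3, a target gene of BMP signals, was at 71.8, 62.8, 62.9, 53.5 and 34.5 CPM, and ID1, another such target, at 18.9, 20.8, 19.96, 15.9 and 10.2 CPM. In all 3 genes siRNA 2 stood below the other 4 libraries, and in ID1 and ID3 siRNA 1 was the next lowest. SMAD4 holds 3 copies of GTGACTT, ID3 holds 1 and ID1 holds none. SMAD4 and ID3 passed edgeR's quasi-likelihood test (adjusted p = 0.0124 and 0.0433), and ID1 did not (adjusted p = 0.202).

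Of 47 membrane trafficking genes 2 (4.26%) were called higher with siRNA 1, against 2.77% of all members. CLTB, a clathrin light chain, was at 85.8, 79.0, 81.4, 89.6 and 44.5 CPM, a ratio of 2.02 (1.77 to 2.29). DNM1, a dynamin that pinches off vesicles, was at 42.5, 49.7, 55.4, 49.6 and 31.2 CPM, a ratio of 1.59 (1.35 to 1.87). CLTB was low with siRNA 2 alone, while for DNM1 the mock lay within 1.5-fold of siRNA 2 and edgeR's quasi-likelihood test was not passed (adjusted p = 0.0594). The list as a whole leaned the other way, with 30 of 47 members lower with siRNA 1 and a median of -0.04.

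The cholesterol and fatty acid synthesis genes were lower with siRNA 2 as a list, while 1 of 29 members (3.45%) was called. Of all members 2.77% were called in that direction. Of the 29, 27 had a positive log2 ratio of siRNA 1 to siRNA 2, with a median of 0.19, against 5240 of all 10697 members (49.0%). SREBF1, a transcription factor that switches on these genes, was at 60.3, 65.0, 70.7, 59.9 and 39.4 CPM, a ratio of 1.52 (1.32 to 1.76). It was low with siRNA 2 alone, and did not pass edgeR's quasi-likelihood test (adjusted p = 0.0551). Relative to the mean of the mock and DICER1 libraries the list's median was -0.01 with siRNA 1 and -0.19 with siRNA 2. Among the 22 members with neither word in the 3′ UTR 21 were positive, with a median of 0.19. With the trend on UTR length, GC content and expression removed, the median of all 29 was 0.18.

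Neuronal genes were low with both DROSHA siRNAs against the mean of the mock and DICER1 libraries, with medians of -0.51 and -0.61 in 15 members. That mean is raised by the DICER1 libraries, in which the list stood 0.39 and 0.76 above the mock. Against the mock alone the medians were -0.07 with DROSHA siRNA 1 and -0.29 with siRNA 2. Between the 2 DROSHA siRNAs the median log2 ratio of siRNA 1 to siRNA 2 was 0.29, with 13 of 15 members above 0. Of the 15, 2 (13.3%) were called higher with siRNA 1, against 2.77% of all members, and 0 (0%) lower, against 1.30%. STMN3, a stathmin that binds tubulin, was at 65.4 CPM in the mock, 85.7 and 111 with the DICER1 siRNAs, 54.8 with DROSHA siRNA 1 and 21.8 with siRNA 2, a ratio of 2.52 (2.11 to 3.02). SYP, or synaptophysin, of synaptic vesicles, was at 33.0, 56.8, 80.6, 33.0 and 19.7 CPM, a ratio of 1.67 (1.37 to 2.05). SYP holds 1 GTGACTT in its 3′ UTR, and STMN3 holds neither word there. STMN3 passed edgeR's quasi-likelihood test (adjusted p = 0.0184) and SYP did not (adjusted p = 0.279).

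Zinc finger genes with ZNF symbols differed in the opposite direction. Of 369 members 256 were lower with siRNA 1 than with siRNA 2, with a median of -0.11, while 51.0% of all members were lower. Of the 369, 11 (2.98%) were called lower, against 1.30% of all members, and 4 (1.08%) higher, against 2.77%. Their median relative to the mock and DICER1 libraries was -0.0074 with siRNA 1 and 0.12 with siRNA 2, so it was the siRNA 2 library that lay away from the others. ZNF367 was at 37.6, 56.5, 61.7, 42.2 and 75.3 CPM, a ratio of siRNA 2 to siRNA 1 of 1.78 (1.56 to 2.04). ZNF493 was at 11.3, 10.5, 10.2, 8.37 and 14.4 CPM, a ratio of 1.72 (1.27 to 2.34), which did not pass edgeR's quasi-likelihood test (adjusted p = 0.157), while ZNF367 did (adjusted p = 0.0134). ZNF395 went against the list, at 77.4, 79.9, 83.2, 77.3 and 31.5 CPM, and holds 3 copies of GTGACTT. Among the 275 ZNF genes with neither word 189 were lower with siRNA 1, with a median of -0.11. Many ZNF genes resemble each other in sequence, and the labels do not say how reads shared by such genes were counted.

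UTR composition moved with the same ratio. Over the 2092 scanned members with the lowest 3′ UTR GC content the median log2 ratio of siRNA 1 to siRNA 2 was -0.06, and over the 2092 with the highest it was 0.05, against -0.01 and 0.02 in the DICER1 pair. With the trend on UTR length, GC content and expression removed, the ZNF median was -0.12, the neuronal median 0.25 and the ribosomal protein median 0.06.

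Cytosolic ribosomal protein genes had small ratios in 1 direction, with 64 of 74 above 0, a median of 0.05 and 0 called (0%). Of all members 2.77% were called higher and 1.30% lower with siRNA 1. The widest ratio among them was that of RPL7, at 5.39 CPM with siRNA 1 and 7.90 CPM with siRNA 2, whose interval for siRNA 2 over siRNA 1 included equal levels (0.987 to 2.19). Ribosomal protein genes have many near-identical pseudogene copies, so their counts are uncertain. Of 51 nuclear subunits of oxidative phosphorylation 1 (1.96%) was called higher with siRNA 1, against 2.77% of all members. It was NDUFA8, of complex I, at 63.1, 60.2, 60.5, 65.2 and 38.1 CPM, with siRNA 2 last, and it holds 1 GTGACTT. The list's median was 0.05.

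Reported targets of 2 microRNA families did not separate the siRNAs as lists. The median log2 ratio was -0.01 for 35 reported miR-17~92 targets and -0.06 for 33 reported let-7 targets. HIPK3, a protein kinase, was at 66.9, 44.6, 32.8, 81.2 and 29.8 CPM, so that DICER1 siRNA 2 and DROSHA siRNA 2 were both low, and its ratio of DROSHA siRNA 1 to siRNA 2 was 2.72 (2.35 to 3.17). E2F5, an E2F transcription factor, was at 25.0, 20.9, 13.6, 28.5 and 11.2 CPM, a ratio of 2.54 (1.98 to 3.27), with the same 2 libraries low. HIPK3 passed edgeR's quasi-likelihood test (adjusted p = 0.0083) and E2F5 did not (adjusted p = 0.0551). HIPK3 holds 1 GTGACTT, and E2F5 holds neither word.

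The remaining lists had at most 1 called member each. In the lists of CHAC1, DNAJB4, EGR3 and BNIP3L that was 3.03%, 5.56%, 4.17% and 3.45% of members. Over all members 2.77% were called higher and 1.30% lower with siRNA 1. In the unfolded protein and ATF4 response (33 members, median 0.04) CHAC1 was at 5.85 CPM with siRNA 1 and 3.06 CPM with siRNA 2. Among 18 cytosolic heat shock chaperones (median -0.07) DNAJB4 was at 8.72 and 14.7 CPM, and among 24 immediate early genes (median -0.03) EGR3 was at 2.87 and 6.37 CPM. These 3 rest on few counts, and none passed edgeR's quasi-likelihood test (adjusted p = 0.263, 0.189 and 0.206). Among 29 hypoxia and glycolysis genes (median 0.07) BNIP3L, a mitophagy receptor, was at 74.9, 74.7, 77.5, 50.5 and 84.6 CPM, low with siRNA 1 alone, a ratio of siRNA 2 to siRNA 1 of 1.68 (1.48 to 1.89), and it holds 2 copies of ATAGAAT and 1 of GTGACTT. The gap of BNIP3L to the nearest library was under 1.5-fold.

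Lysosome and proton pump genes (32 members, median -0.06) and nuclear envelope genes (18 members, median 0.0050) had 0 called (0%). The shares of all members were 2.77% higher and 1.30% lower with siRNA 1. ATP6AP2, an accessory protein of the proton pump, was at 174, 165, 164, 133 and 181 CPM, a ratio of siRNA 2 to siRNA 1 of 1.36 (1.26 to 1.47), which passed edgeR's quasi-likelihood test (adjusted p = 0.0476) and not the 1.5-fold limit. TOR1AIP2 had the widest ratio of siRNA 2 to siRNA 1 in the nuclear envelope list, 1.16 (1.05 to 1.29).

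**Figure D5:**
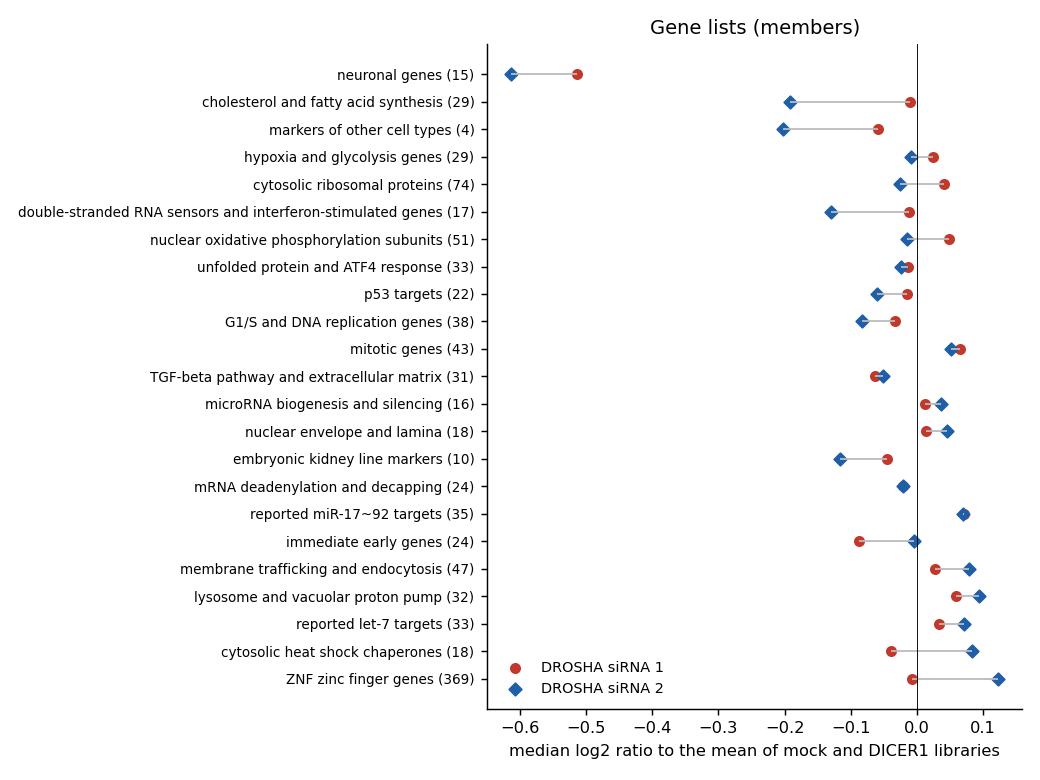
Median log2 ratio of each gene list (x axis) in the DROSHA siRNA 1 library (red circles) and the DROSHA siRNA 2 library (blue diamonds), both against the mean of the mock and DICER1 libraries, with the number of members in brackets and a grey line joining the pair. The cholesterol list lies at -0.01 and -0.19, the ZNF list at -0.0074 and 0.12, and the neuronal list is far left in both libraries.

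Total counts ran from 7620206 to 8736455 per library, 8736455 for DROSHA siRNA 1 and 7812093 for siRNA 2. The 10 top genes took 2.90% to 2.96% of them in every library. Markers of other cell types were close to 0: of 29 with a row of counts, 22 stayed under 1 CPM and 4, among them PTPRC and DCN, had 0 counts in all 5 libraries. HBB, ACTA2, OLIG2 and EPCAM reached 5 CPM, and the list's summed level was 130 CPM with DROSHA siRNA 1 and 118 CPM with siRNA 2, against 127 to 141 CPM in the other 3 libraries. Of 14 markers of the embryonic kidney line 10 reached 5 CPM, with VIM at 419 and 425 CPM in the DROSHA libraries. WT1 was the 1 called, at 8.79, 8.89, 9.74, 9.98 and 4.71 CPM, was low with siRNA 2 alone on 37 counts, and did not pass edgeR's quasi-likelihood test (adjusted p = 0.110).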

How the data were processed

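Raw read counts for 5 poly(A) libraries, whole numbers by gene symbol, are what the authors deposited, in 1 table and without normalization. The submitters' processing notes name CASAVA 1.8.2, STAR, HTSeq, edgeR and build hg19, with no role or order. Whether strand was used in counting is not stated, so overlapping and antisense genes may share reads. The members, gene lists and tests were chosen with earlier results of these data known.

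TMM factors came from edgeR 4.0.16 in R 4.3.3. From them CPM and log2 CPM with a prior count of 2 were computed in Python 3.11.15. edgeR's quasi-likelihood test kept genes that reached 1 CPM in 2 or more libraries, with Benjamini-Hochberg adjustment. Ratios carry 95% exact conditional binomial counting intervals. GENCODE 29 transcripts supplied 3′ UTRs, with 17329 symbols matched directly and 693 through older symbols. Of microRNAs in the RefSeq table, 0 have ATAGAAT or GTGACTT as their seed match.

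Genes named are DROSHA, DICER1 and DGCR8; the 10 widest called ratios in each direction; the 8 widest gaps per library and direction; up to 3 called members per list, or else the widest; the 5 lowest holders of each leading word; and the 3 genes on each side of the 5 CPM limit. Alternatives were other scaling, fold, filter, prior count and reference libraries. The steps were tested on simulated data.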

Additional observations from a re-analysis of the deposited data

Results flagged for a closer look

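Of the 72 named genes, 40 differed between the 2 DROSHA siRNAs by edgeR's quasi-likelihood test of the difference itself, at adjusted p-values of up to 0.0476, with the spread taken from the DICER1 siRNA pair. Of the 72, 58 were already called by fold and interval on the counts of the same 2 libraries. A high share of them passing was thus largely built in, and the shares over all tested genes are given with that test above. The values in brackets are fitted log2 ratios of siRNA 1 to siRNA 2, 1 library each. The 24 higher with siRNA 1 were PRDX3 (2.18), ZDHHC20 (2.11), CORO1C (2.02), OIP5 (1.86), SUMF1 (1.84), ADAM10 (1.82), SLMO2 (1.78), MREG (1.65), C12orf57 (1.65), API5 (1.56), PJA2 (1.497), HIPK3 (1.45), STMN3 (1.33), ZNF395 (1.30), RRM2 (1.24), CLTB (1.01), CDKN1A (0.90), DCP2 (0.87), NDUFA8 (0.77), ADAR (0.75), TNRC6A (0.75), SMAD4 (0.73), CCNE1 (0.69) and ID3 (0.63). The 16 lower with siRNA 1 were ATP6AP2 (-0.45), BNIP3L (-0.74), ZNF367 (-0.83), NIP7 (-0.96), UBE2Z (-0.98), PEX5 (-1.05), SETD7 (-1.09), CFL2 (-1.10), MTPN (-1.14), FNDC3A (-1.18), PDLIM5 (-1.18), SDC2 (-1.20), CNOT6 (-1.21), KLHL15 (-1.23), FGF2 (-1.31) and CHIC1 (-1.36). Both siRNAs are directed against the same mRNA, which is why genes that differ between them are listed. No group has more than 1 library, so no library could be compared with its own replicates.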

How the results depend on the processing

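No paired analysis was possible because each group is 1 library, and the numbers of the 2 siRNAs are what is compared. A 2-fold limit left 61 genes higher and 24 lower with siRNA 1, 34 standing below the other 4 libraries and 1 above with siRNA 2, and 3 below and 0 above with siRNA 1. A limit of 20 CPM left 185 higher, 91 lower and 0 above with siRNA 1, since fewer genes enter. Leaving out the mock, DICER1 siRNA 1 or DICER1 siRNA 2 in turn gave between 2 and 6 genes above with siRNA 1 and between 8 and 14 above with siRNA 2, so the counts of high genes depend on which libraries are compared. The counts of low genes were between 31 and 36 with siRNA 1 and between 166 and 184 with siRNA 2, against 26 and 161 with no library left out. Leaving out a library can only keep or raise such counts, low or high, so none could have fallen. Without the mock, 6 and 14 genes stood above, and without DICER1 siRNA 1, 5 and 8. edgeR called 251 genes by its quasi-likelihood test, 610 with no filter, 530 by its likelihood ratio test and 285 with library totals, while DESeq2 called 86 (68 higher and 18 lower with siRNA 1). The cause of these differences was not tested. Leaving out a DICER1 library from edgeR's test leaves no residual degree of freedom, so no test was made. The shift of ATAGAAT was -0.0796 with no trend removed and -0.0631 with the mock alone as reference. Both words kept the lowest rank under all 6 alternatives tried, of which the reference of mock and DICER1 siRNA 1 was chosen after seeing the data. Over 4 alternatives and 23 lists, the list medians moved by less than the counting interval of a typical single member, which is wider than most of these medians, and 6 near 0 changed sign. At 20 CPM the immediate early median went from -0.03 to 0.03, p53 targets from 0.02 to -0.0090 and TGF-beta and matrix genes from 0.01 to -0.03. With library totals the microRNA biogenesis median went from 0.0063 to -0.0038, nuclear envelope from 0.0050 to -0.0052 and kidney line markers from 0.0018 to -0.0083. Of 360 values of named genes 26 fell short of the limit, all at 2-fold. The fold and interval alternatives leave the ratio itself unchanged. A sign could thus change only with other scaling or prior count, and among the 58 called genes 0 did. ATP6AP1L, just inside 5 CPM, rests on 44 and 28 counts, and its interval of 0.862 to 2.36 holds both equal levels and a 2-fold difference.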
